A study of Mus musculus with 9 samples.

Results

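The cell division brake of HC11 mouse mammary epithelial cells was described here through 10 genes: the inhibitors of cyclin-dependent kinases (CDKs) of the Cip/Kip class (Cdkn1a, Cdkn1b, Cdkn1c) and the Ink4 class (Cdkn2a, Cdkn2b, Cdkn2c, Cdkn2d), and the pocket protein genes Rb1, Rbl1 and Rbl2. A gene was measured through probesets annotated to its symbol alone, and the probeset with the highest mean over the arrays stood for it. That gave 9 of the 10 genes, among 19937 genes with a probeset of their own and 34760 probesets on the array. The probeset of Cdkn1a also carries a second gene symbol, so Cdkn1a was not analysed here.

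HC11 is a line of undifferentiated mammary epithelial cells first obtained from a mid-pregnant BALB/c mouse, and it carries a mutated p53 gene. Each of the 3 strains stably overexpressed Mkl1, a coactivator of serum response factor (SRF), fused at its C-terminus to red fluorescent protein. HC11-FL carried the full-length protein, HC11-mutB1 a form with alanine substitutions in the B1 site that contacts SRF, and HC11-ΔSAP a form without the SAP domain, a putative DNA-binding domain. HC11-FL is the control, and no strain with an empty vector was analysed here. The strains were selected with Geneticin and sorted by fluorescence, so each construct is represented by 1 strain. All cultures spent 48 h in medium with 0.03% fetal calf serum (FCS) and no epidermal growth factor before RNA was taken. Each strain was grown in triplicate and hybridised to 3 Affymetrix Mouse Gene 1.0 ST arrays, 9 in all. The spread between arrays therefore holds the culture and the array but not the making of a strain, and the p-values measure that spread alone.

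CDKs bound to cyclins drive the cell cycle by phosphorylating, among other substrates, the pocket proteins. Ink4 proteins bind Cdk4 and Cdk6 and keep them from D-type cyclins, whereas Cip/Kip proteins bind a wider range of cyclin-CDK complexes. Unphosphorylated pocket proteins hold E2F transcription factors and silence the genes of DNA replication and mitosis. Rbl1 (p107) and Rbl2 (p130) do so together with the MuvB proteins in the DREAM complex, which also recognises a promoter element called CHR. Rbl1 is itself a known E2F target, Rb1 is the retinoblastoma tumour suppressor, and Rbl2 is typical of resting cells. In the mammary gland these proteins restrain growth of the epithelium, and loss of the Rb pathway is common in breast cancer.

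All 9 measured genes had a mean of at least 4 on the log2 scale, the minimum below which a probeset was regarded as not expressed. Levels are log2 values of 1 probeset, which are comparable between arrays but not between genes. Differences were tested with limma and adjusted by Benjamini-Hochberg over all 34760 probesets, and a gene was called where the adjusted p was 0.01 or less. The study also required a 2-fold difference and the mean of at least 4, and these 3 filters are counted separately. With 3 arrays against 3, an exact two-sided permutation test of 1 gene cannot give a p below 0.1, so it was not used for calls. The cells were measured in bulk, where a smaller share of cells expressing a gene and less transcript per cell cannot be told apart.

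The promoters of 5 of these genes are shown: the 4 in which a motif of the pathway was found, and that of Cdkn2c, which passed all 3 filters below and held none. Each is the 250 bases before the transcript start from RefSeq on GRCm38.p6, read 5′ to 3′ on the strand of the gene. Capitals mark a match to an E2F word (TTTCCCGC, TTTCGCGC, TTTGCCGC or TTTGGCGC) or to the CHR element (TTTGAA) on either strand.
Rbl1, chr2:157204535-157204784, minus strand: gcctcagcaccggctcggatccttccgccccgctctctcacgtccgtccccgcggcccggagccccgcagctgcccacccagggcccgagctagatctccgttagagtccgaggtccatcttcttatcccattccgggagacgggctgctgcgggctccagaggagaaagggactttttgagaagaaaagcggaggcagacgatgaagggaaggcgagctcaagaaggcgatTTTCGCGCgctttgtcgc
Cdkn2a, upstream start, chr4:89294620-89294869, minus strand: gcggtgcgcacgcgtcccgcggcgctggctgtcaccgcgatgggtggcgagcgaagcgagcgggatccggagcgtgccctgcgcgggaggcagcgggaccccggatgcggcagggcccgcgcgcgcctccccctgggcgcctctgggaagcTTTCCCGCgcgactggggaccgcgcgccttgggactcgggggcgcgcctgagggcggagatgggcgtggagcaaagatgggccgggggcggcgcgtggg
Cdkn2b, chr4:89311033-89311282, minus strand: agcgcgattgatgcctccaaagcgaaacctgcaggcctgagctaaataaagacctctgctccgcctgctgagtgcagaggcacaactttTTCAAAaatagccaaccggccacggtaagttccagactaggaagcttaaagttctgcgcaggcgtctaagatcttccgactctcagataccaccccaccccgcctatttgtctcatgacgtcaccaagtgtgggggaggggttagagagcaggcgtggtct
Cdkn2c, upstream start, chr4:109666757-109667006, minus strand: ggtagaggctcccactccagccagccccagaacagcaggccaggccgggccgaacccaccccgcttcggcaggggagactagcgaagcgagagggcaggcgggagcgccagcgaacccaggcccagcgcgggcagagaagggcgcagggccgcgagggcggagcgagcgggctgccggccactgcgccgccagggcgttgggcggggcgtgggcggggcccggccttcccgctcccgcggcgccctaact
Rbl2, chr8:91069807-91070056, plus strand: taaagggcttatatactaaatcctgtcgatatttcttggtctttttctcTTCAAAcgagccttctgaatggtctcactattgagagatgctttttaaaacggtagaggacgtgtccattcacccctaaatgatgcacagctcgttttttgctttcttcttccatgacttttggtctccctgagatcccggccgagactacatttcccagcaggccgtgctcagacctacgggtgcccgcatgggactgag
The table of promoters held 11 such windows for 8 of the 10 genes. An E2F word stood 18 bases before the start of Rbl1 and 99 bases before the upstream start of Cdkn2a. The window of the other Cdkn2a start held no E2F word. The CHR letters were found on the reverse strand 161 bases before the start of Cdkn2b and 201 bases before that of Rbl2. The Cdkn2c window held neither, and nor did the windows not shown. Among 32851 promoter windows of the same length, 1.86% held an E2F word and 16.0% the CHR letters. The CArG box, the element bound by SRF, was in 1.47% of them and in none of the 11. A match describes letters and does not show binding.

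In the comparison of HC11-mutB1 with HC11-FL, 3 of the 9 genes were lower and 2 were higher in the mutant, where 10.6% of 13157 genes with a mean of at least 4 were called lower and 15.7% higher. In HC11-ΔSAP, set against HC11-FL, 5 were lower and 2 were higher, beside 12.0% and 16.0% of all genes. Between the mutant strains, HC11-ΔSAP was lower for 2 and higher for 2 of the 9, beside 10.6% and 9.86%. The median difference over the 9 genes was -0.14, -0.35 and 0.15 in these comparisons, beside -0.01, 0.00 and 0.02 over all genes. Both comparisons with HC11-FL share its arrays, so their values are given side by side and the mutant strains were compared directly. The 3 filters together passed Cdkn2c in HC11-mutB1 against HC11-FL and Rbl1 between the mutant strains, where 3.88% and 3.89% of all genes passed. In HC11-ΔSAP against HC11-FL, where 4.13% passed, the largest difference among the 9 genes was that of Rb1, at 1.60-fold.

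**Figure D1:**
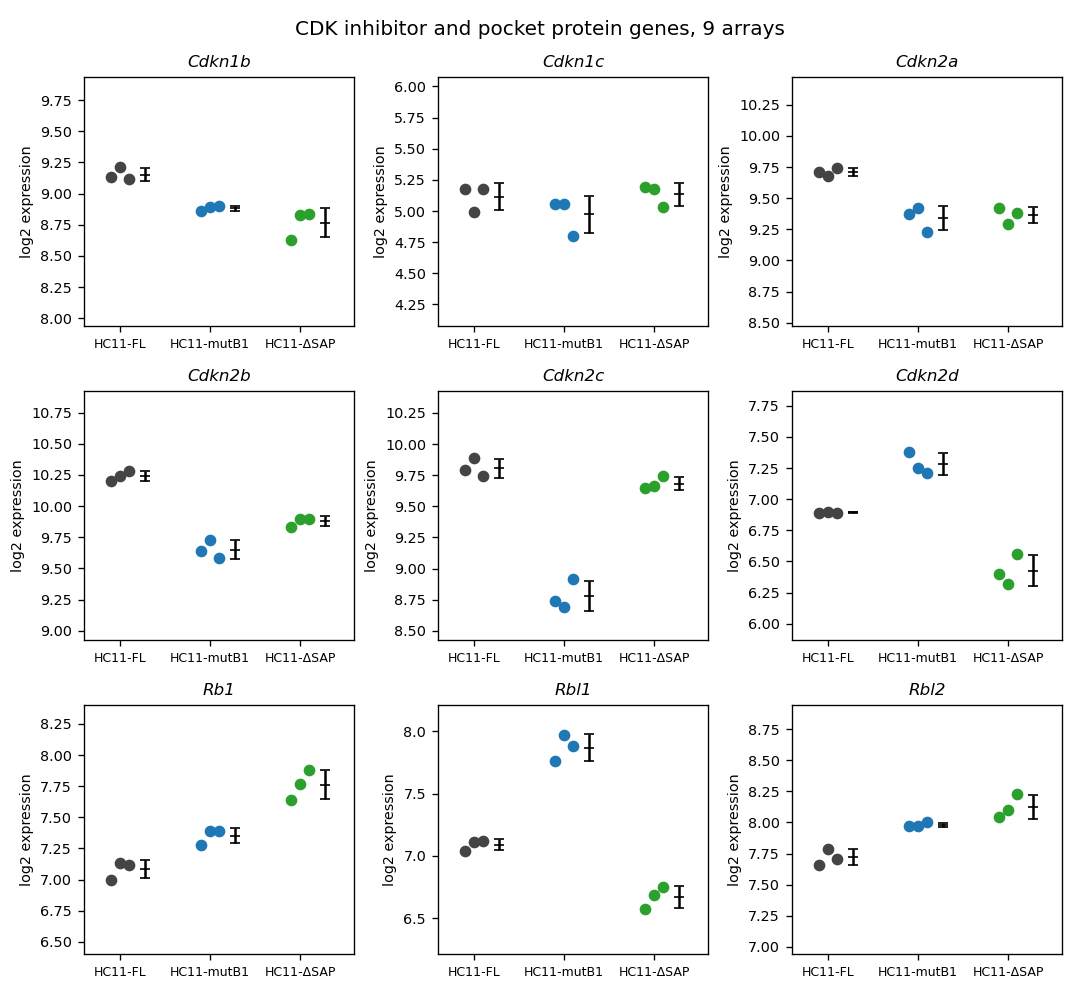
Log2 expression of 9 CDK inhibitor and pocket protein genes in HC11-FL, HC11-mutB1 and HC11-ΔSAP (x axis). Points are the 3 arrays of a strain, and the bar beside them is the mean ± SD; each y axis spans 2 log2 units around the mean of its gene. Cdkn2c was lowest in HC11-mutB1, Rbl1 and Cdkn2d were highest in HC11-mutB1 and lowest in HC11-ΔSAP, and Rb1 was highest in HC11-ΔSAP.

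The Ink4 genes were mostly lower in the mutant strains. In HC11-mutB1 3 of the 4 fell and Cdkn2d rose, beside 10.6% of all genes called lower. In HC11-ΔSAP 3 of the 4 fell and Cdkn2c did not pass, beside 12.0% called lower. The falls of Cdkn2a in both strains and of Cdkn2d in HC11-ΔSAP lost their calls without certain single arrays, as given below. Cdkn2c, which encodes the inhibitor p18Ink4c, lies on chromosome 4 at 109660876 to 109666756 (GRCm38.p6). Its level was 9.79, 9.89 and 9.74 on the HC11-FL arrays, 8.74, 8.69 and 8.92 on the HC11-mutB1 arrays, and 9.65, 9.66 and 9.74 on the HC11-ΔSAP arrays. The HC11-mutB1 arrays were low and apart from all others, whereas HC11-FL and HC11-ΔSAP met at 9.74. In HC11-mutB1 it fell by 1.02 log2 units (SE 0.07, 2.03-fold, limma adjusted p = 3.4e-05). In HC11-ΔSAP it differed from HC11-FL by -0.12, with a 95% confidence interval from -0.29 to 0.04 (adjusted p = 0.34). The direct difference, HC11-ΔSAP minus HC11-mutB1, was 0.90 (interval 0.73 to 1.06, 1.86-fold, adjusted p = 8.1e-05). The fold in HC11-mutB1 lay so close to 2 that, without HC11-FL replicate 2 or without HC11-mutB1 replicate 1 or 2, Cdkn2c no longer passed the fold filter, with differences between -1.09 and -0.98 over the arrays left out in turn. Its measured neighbours on the chromosome, 9630013D21Rik on one side and Faf1 on the other, were called in none of the 3 comparisons.

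Cdkn2d encodes another Ink4 inhibitor, p19Ink4d, and lies on chromosome 9 at 21288459 to 21291421. It ran the opposite way to Cdkn2c in HC11-mutB1. Its level was 6.89, 6.90 and 6.89 in HC11-FL, 7.38, 7.25 and 7.21 in HC11-mutB1, and 6.40, 6.32 and 6.56 in HC11-ΔSAP. The strains did not overlap, with HC11-mutB1 highest and HC11-ΔSAP lowest. The difference from HC11-FL was 0.39 in HC11-mutB1 (SE 0.07, 1.31-fold, adjusted p = 0.0059) and -0.47 in HC11-ΔSAP (1.38-fold, adjusted p = 0.0021). From HC11-mutB1 to HC11-ΔSAP it fell by 0.86 (1.81-fold, adjusted p = 0.00011). The direct difference passed under every alternative and with any array left out. The rise in HC11-mutB1 lost its call without any 1 of 7 of the 9 arrays, all but HC11-ΔSAP replicates 2 and 3, with differences from 0.34 to 0.42 and adjusted p up to 0.024. The fall in HC11-ΔSAP lost its call without HC11-ΔSAP replicate 1, at -0.45 (adjusted p = 0.01).

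Cdkn2a and Cdkn2b lie beside each other on chromosome 4, at 89274473 to 89294619 and 89306289 to 89311032. Cdkn2b encodes p15Ink4b, an inhibitor known to be induced by TGF-β. Its level was 10.20, 10.24 and 10.28 in HC11-FL, 9.64, 9.73 and 9.58 in HC11-mutB1, and 9.83, 9.90 and 9.90 in HC11-ΔSAP. HC11-FL was highest, HC11-mutB1 lowest, and no strain overlapped another. It fell by 0.59 in HC11-mutB1 (SE 0.05, 1.50-fold, adjusted p = 0.00013) and by 0.36 in HC11-ΔSAP (1.29-fold, adjusted p = 0.0016). The mutant strains differed by 0.22 (interval 0.10 to 0.35), which missed the threshold (adjusted p = 0.023). Both falls passed under every alternative and with any array left out.

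Cdkn2a gives p16Ink4a and, from another first exon, the Mdm2-binding protein p19Arf. Which of its transcripts the probes read was not analysed here, nor which of these proteins the start with the E2F word serves. Its level was 9.71, 9.68 and 9.74 in HC11-FL, 9.37, 9.42 and 9.23 in HC11-mutB1, and 9.42, 9.29 and 9.38 in HC11-ΔSAP. All HC11-FL arrays were above all arrays of the mutant strains, which overlapped each other. The difference was -0.37 in HC11-mutB1 (SE 0.06, 1.29-fold, adjusted p = 0.0033) and -0.35 in HC11-ΔSAP (1.27-fold, adjusted p = 0.0045). The mutant strains differed by 0.03, with an interval from -0.11 to 0.17. Fitted with the strains compared alone, the call in HC11-mutB1 was lost (adjusted p = 0.011). It was also lost without any 1 of the HC11-FL arrays or HC11-mutB1 replicate 1, with adjusted p up to 0.016. The call in HC11-ΔSAP was lost without any 1 of the HC11-FL arrays or HC11-ΔSAP replicate 2 or 3, with adjusted p up to 0.02.

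Among the genes next to this pair, Mtap, an enzyme of methionine salvage, did not differ in HC11-mutB1 beyond the threshold (0.03, adjusted p = 0.76). HC11-ΔSAP had less of it than HC11-FL (-0.33, adjusted p = 0.0017) or HC11-mutB1 (-0.36, adjusted p = 0.0014). Klhl9 and Dmrta1, farther out on either side of the locus, were called in none of the comparisons, and Dmrta1 had a mean of 3.31, below the minimum of 4.

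Of the Cip/Kip genes, Cdkn1b was called in 1 comparison and Cdkn1c was not called. Cdkn1b, on chromosome 6 at 134920401 to 134925525, encodes p27Kip1, an inhibitor of cyclin E and cyclin A complexes. Its level was 9.13, 9.21 and 9.12 in HC11-FL, 8.86, 8.89 and 8.90 in HC11-mutB1, and 8.63, 8.83 and 8.84 in HC11-ΔSAP. The strains did not overlap, with HC11-FL highest and HC11-ΔSAP lowest, although HC11-ΔSAP replicate 1 lay well below its partners. Cdkn1b fell by 0.39 in HC11-ΔSAP (SE 0.06, 1.31-fold, adjusted p = 0.0033). In HC11-mutB1 the difference was -0.27 and missed the threshold (adjusted p = 0.021). Between the mutant strains it was -0.12, with an interval from -0.27 to 0.03 (adjusted p = 0.32).

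A second probeset of Cdkn1b read 7.09, 7.61 and 7.32 in HC11-FL, 7.20, 7.07 and 7.22 in HC11-mutB1, and 6.89, 7.07 and 7.46 in HC11-ΔSAP. On it all strains overlapped. Its difference in HC11-ΔSAP was -0.20, with an interval from -0.59 to 0.19 (adjusted p = 0.54). The mean of both probesets gave -0.29 (adjusted p = 0.11), so the call rests on the brighter probeset. It was also lost without any 1 of the HC11-FL arrays (adjusted p up to 0.015), with the strains compared fitted alone (0.018) and with the arrays re-centred on their medians (0.014).

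Cdkn1c, on chromosome 7 at 143458339 to 143461059, is an imprinted gene that encodes p57Kip2. Its level was 5.18, 4.99 and 5.18 in HC11-FL, 5.06, 5.06 and 4.80 in HC11-mutB1, and 5.19, 5.18 and 5.03 in HC11-ΔSAP. All strains overlapped. The differences were -0.14 (interval -0.35 to 0.07), 0.01 (-0.20 to 0.22) and 0.15 (-0.06 to 0.36) in the same order of comparisons as above, with adjusted p of 0.39, 0.96 and 0.37. A 2-fold shift of the probeset reading lay outside each of these intervals. The reading was low, with a mean of 5.08, beside 4.73 for the immune marker Csf1r and 4.62 for the adipocyte marker Plin1. Whether a reading this low follows a 2-fold change of the transcript was not tested, so the intervals do not exclude such a change.

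The pocket protein genes parted from each other. In HC11-mutB1 Rbl1 rose and the other two did not pass, and in HC11-ΔSAP Rb1 and Rbl2 rose while Rbl1 fell. Rbl1, the gene whose window holds an E2F word close to its start, lies on chromosome 2 at 157145893 to 157204534. It was measured at 7.04, 7.11 and 7.12 in HC11-FL, 7.76, 7.97 and 7.88 in HC11-mutB1, and 6.57, 6.69 and 6.75 in HC11-ΔSAP. HC11-mutB1 was highest, HC11-ΔSAP lowest, and the strains did not overlap. It rose by 0.78 in HC11-mutB1 (SE 0.07, 1.72-fold, adjusted p = 0.00012) and fell by 0.42 in HC11-ΔSAP (1.34-fold, adjusted p = 0.0032). From HC11-mutB1 to HC11-ΔSAP it fell by 1.20 (interval -1.36 to -1.04, 2.30-fold, adjusted p = 1.3e-05), the largest difference among the 9 genes. The rise and the direct difference passed under every alternative and with any array left out. The fall against HC11-FL lost its call without HC11-FL replicate 2 or 3 or HC11-ΔSAP replicate 1 or 2 (adjusted p up to 0.016), and with the arrays re-centred on their medians (adjusted p = 0.012). Of the genes on either side of Rbl1, Samhd1, a dNTP hydrolase, was higher than in HC11-FL in both mutant strains (0.38 and 0.39), and Rpn2, a subunit of the oligosaccharyltransferase, likewise (0.32 and 0.56). Neither neighbour shared the fall of Rbl1 in HC11-ΔSAP.

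Rb1, on chromosome 14 at 73192858 to 73325951, ran the other way in HC11-ΔSAP. Its level was 7.0, 7.13 and 7.12 in HC11-FL, 7.28, 7.39 and 7.39 in HC11-mutB1, and 7.64, 7.77 and 7.88 in HC11-ΔSAP. HC11-FL was lowest and HC11-ΔSAP highest, without overlap. It rose by 0.68 in HC11-ΔSAP (SE 0.07, 1.60-fold, adjusted p = 0.00029), under every alternative and with any array left out. The difference of 0.27 in HC11-mutB1 missed the threshold (adjusted p = 0.033). HC11-ΔSAP exceeded HC11-mutB1 by 0.41 (1.33-fold, adjusted p = 0.0057), a call lost without any 1 of 7 arrays, HC11-FL replicate 1 and HC11-ΔSAP replicate 1 being the exceptions, with adjusted p up to 0.025. It was also lost with the strains compared fitted alone and with the arrays re-centred on their medians (adjusted p = 0.019 in each).

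Rbl2, on chromosome 8 at 91070057 to 91123844, followed the same order as Rb1. It was measured at 7.66, 7.79 and 7.71 in HC11-FL, 7.97, 7.97 and 8.0 in HC11-mutB1, and 8.04, 8.10 and 8.23 in HC11-ΔSAP. The strains did not overlap. It rose by 0.41 in HC11-ΔSAP (SE 0.06, 1.33-fold, adjusted p = 0.0018), a call lost only when the strains compared were fitted alone (adjusted p = 0.011). In HC11-mutB1 the difference was 0.26 and missed the threshold (adjusted p = 0.018). The mutant strains differed by 0.15 (interval 0.01 to 0.29, adjusted p = 0.17).

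**Figure D2:**
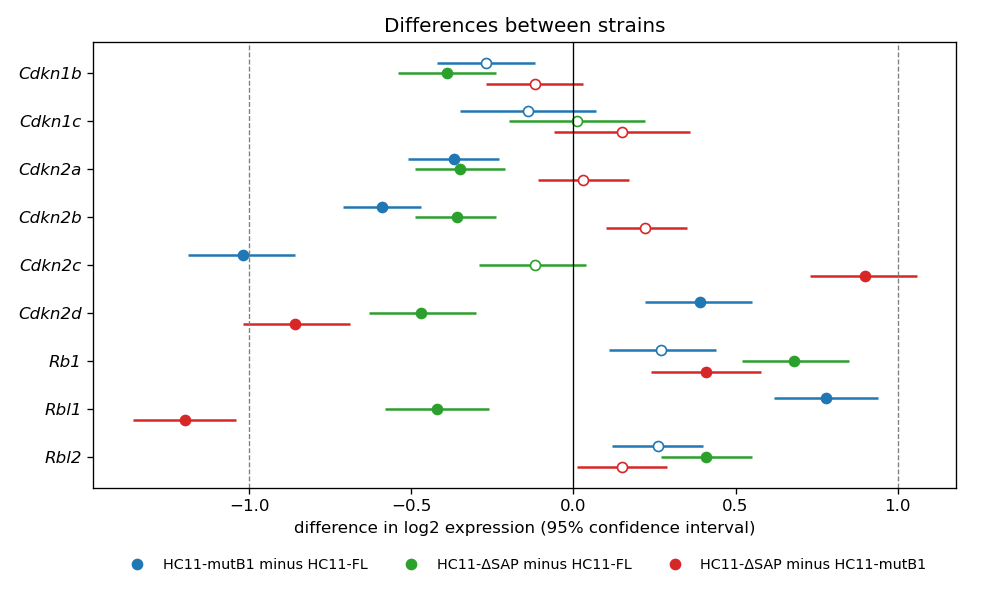
Differences in log2 expression between strains (x axis, with 95% confidence intervals) for 9 genes (y axis). Filled points were called at an adjusted p of at most 0.01, open points were not, and dashed lines mark a 2-fold difference. Rbl1 and Cdkn2d lie on opposite sides of 0 in the comparisons of HC11-mutB1 and HC11-ΔSAP with HC11-FL, whereas Cdkn2a and Cdkn2b lie below 0 in both.

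The kinases and cyclins on which the inhibitors act were read from a list of 13 genes, 12 of them measured. In HC11-mutB1 4 were lower and 3 higher, beside 10.6% and 15.7% of all genes, with a median of -0.10. In HC11-ΔSAP 8 were lower, beside 12.0% of all genes, and the other 4 did not pass, with a median of -0.54. Against HC11-mutB1, HC11-ΔSAP was lower for 8 and higher for 1, beside 10.6% and 9.86% of all genes. Ccnd2, a D-type cyclin that partners Cdk4 and Cdk6, differed from HC11-FL by -1.35 in the mutB1 strain and -2.77 in the ΔSAP strain. Ccna2, the cyclin of S and G2 phase, differed by 0.96 and -1.59, and Cdk1, the mitotic kinase, by 0.37 and -1.24. For Ccne2, a G1/S cyclin, the difference was -1.05 in HC11-ΔSAP, and 0.33 in HC11-mutB1, which was not called (adjusted p = 0.24). Ccne2 was near the minimum of 4, with a mean of 4.33. Its HC11-ΔSAP arrays read 3.36, 3.29 and 3.93, below that minimum.

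The direct partners of the Ink4 proteins were added after their values were seen. Cdk4 was called lower in both, with differences of -0.30 in HC11-mutB1 and -0.40 in HC11-ΔSAP, and Cdk6 was called in HC11-mutB1 alone (-0.29), with -0.09 in HC11-ΔSAP. Ccnd1 rose by 0.89 in HC11-mutB1, where Ccnd3 fell by 0.60, while in HC11-ΔSAP these cyclins stood at -0.07 and -0.01 and were not called. In HC11-mutB1 the fall of Cdkn2c thus stood beside a fall of Ccnd2 and Ccnd3 and a rise of Ccnd1.

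The partners of the pocket proteins were 17 genes of the E2F, DP and MuvB families with Mybl2 and Foxm1. In HC11-mutB1 5 were higher and 1 lower, beside 15.7% and 10.6% of all genes. In HC11-ΔSAP 6 were lower and 1 higher, beside 12.0% and 16.0%. The medians in these strains were 0.17 and -0.17. E2f8, an atypical E2F repressor, differed from HC11-FL by -1.07 in HC11-ΔSAP and by 0.61 in HC11-mutB1, not called (adjusted p = 0.026). Lin9, a MuvB subunit shared by the DREAM complex of Rbl1 and Rbl2, differed by -1.11 in HC11-ΔSAP and 0.00 in HC11-mutB1. Mybl2 and Foxm1, which take over MuvB in dividing cells, differed by -0.99 and -0.81 in HC11-ΔSAP and by 0.35 (not called, adjusted p = 0.12) and 0.42 in HC11-mutB1. Thus Rbl1 and the partners named for the largest differences, E2f8, Lin9, Mybl2 and Foxm1, were lower in HC11-ΔSAP, while Rb1 and Rbl2 were higher. E2f1 was the partner called higher there (0.38, adjusted p = 0.0025), and 10 of the 17 partners were not called.

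**Figure D3:**
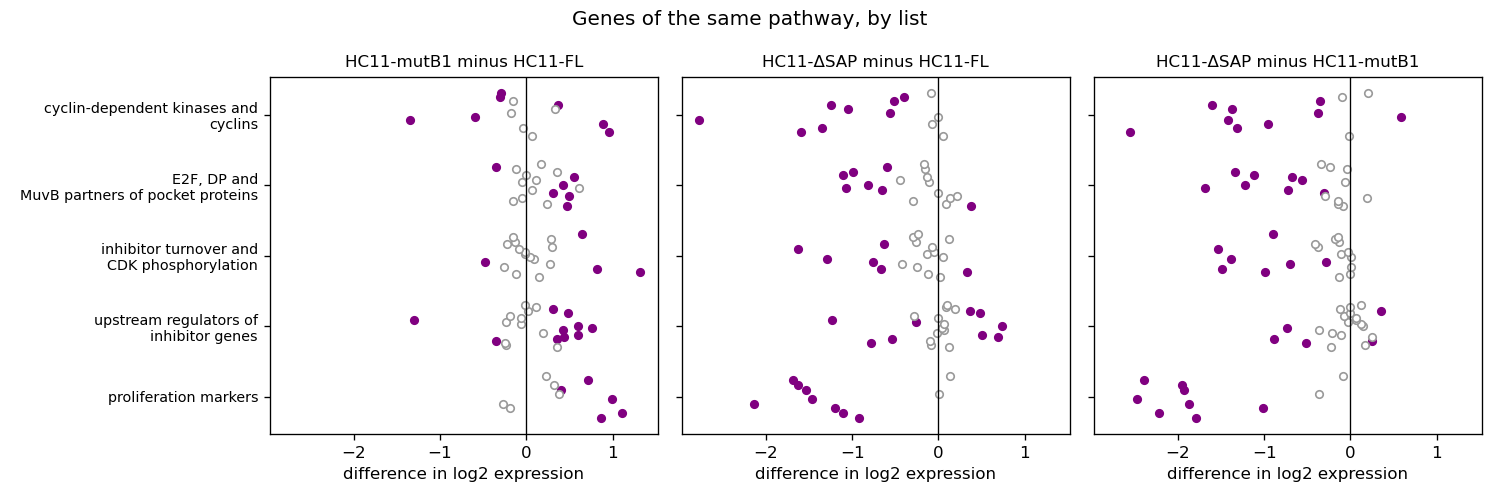
Differences in log2 expression (x axis) of the genes of 5 pathway lists (y axis) in the 3 comparisons (panels). Each point is a gene, filled where the adjusted p was at most 0.01 and open otherwise. In HC11-ΔSAP against HC11-FL, 8 of 12 kinases and cyclins and 8 of 10 proliferation markers lie below 0 and were called. Of all genes, 12.0% were called lower there.

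Genes that turn over the inhibitors or set the phosphorylation of CDKs numbered 18. In HC11-mutB1 3 were higher and 1 lower, beside 15.7% and 10.6% of all genes. These counts were near or below those shares. In HC11-ΔSAP 5 were lower and 1 higher, beside 12.0% and 16.0%. The medians in the 2 strains were 0.01 and -0.25. Dtl, the substrate receptor of a ubiquitin ligase that targets Cdkn1a protein, differed from HC11-FL by -1.63 in HC11-ΔSAP and -0.09 in HC11-mutB1 (adjusted p = 0.62). Cks2, a small CDK-binding protein, differed by -1.29 and 0.09 (adjusted p = 0.68). The CDK-activating phosphatases Cdc25b and Cdc25c rose by 1.32 and 0.82 in HC11-mutB1, while in HC11-ΔSAP Cdc25b rose by 0.33 and Cdc25c fell by 0.67.

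Upstream regulators of the inhibitor genes were measured for 21 of 22. In HC11-mutB1 8 were higher and 2 lower, beside 15.7% and 10.6% of all genes. In HC11-ΔSAP 5 were higher and 4 lower, beside 16.0% and 12.0%. The medians in these strains were 0.11 and 0.06. Myc, a known repressor of Cdkn2b and Cdkn1b, was lower in both strains, with differences of -1.30 in HC11-mutB1 (adjusted p = 7.1e-07) and -1.23 in HC11-ΔSAP (adjusted p = 9.6e-07). Cdkn2b was lower in the same strains, with differences of -0.59 and -0.36. Cdkn1b, on its brighter probeset, differed by -0.27 in the mutB1 strain, which was not called, and by -0.39 in the ΔSAP strain, which was called. Ezh2, a Polycomb methyltransferase that is known to silence the Cdkn2a locus, differed by 0.35 in HC11-mutB1 and -0.54 in HC11-ΔSAP, whereas Cdkn2a was lower in both. Ets1, an activator of Cdkn2a, differed by -0.78 in HC11-ΔSAP and by -0.25 in HC11-mutB1 (adjusted p = 0.011). Id2, an inhibitor of helix-loop-helix factors that also binds pocket proteins, rose by 0.76 in HC11-mutB1 and stood at 0.04 in HC11-ΔSAP (adjusted p = 0.91). The part of these regulators in the levels of the inhibitor genes was not tested.

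Transcripts of some proliferation markers ran in the same direction as some of the 9 genes. Of 10 proliferation markers, 5 were higher in HC11-mutB1, beside 15.7% of all genes, and the others did not pass, with a median of 0.39. In HC11-ΔSAP 8 were lower, beside 12.0% of all genes, with a median of -1.34. Against HC11-mutB1 the median was -1.90 with 8 lower, beside 10.6%. Mki67, the gene of the Ki-67 antigen, differed from HC11-FL by 0.99 in HC11-mutB1 and -1.47 in HC11-ΔSAP. Top2a differed by 0.71 and -1.68, Bub1 by 1.11 and -1.11, and Mcm6, a subunit of the replicative helicase, by -0.27 (adjusted p = 0.025) and -2.14. Pcna and Tyms were called in neither comparison. Rbl1 and Cdkn2d followed the direction of Mki67, Top2a and Bub1 in both strains, while Rb1 and Rbl2 rose in HC11-ΔSAP, where these markers fell. In HC11-mutB1 Rb1 and Rbl2 differed by 0.27 and 0.26, the direction of these markers, and were not called. Mcm2 and Mcm6 went the other way there (-0.19 and -0.27), also not called. The part of the rate of division in the differences of Rbl1 and Cdkn2d was not tested.

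**Figure D4:**
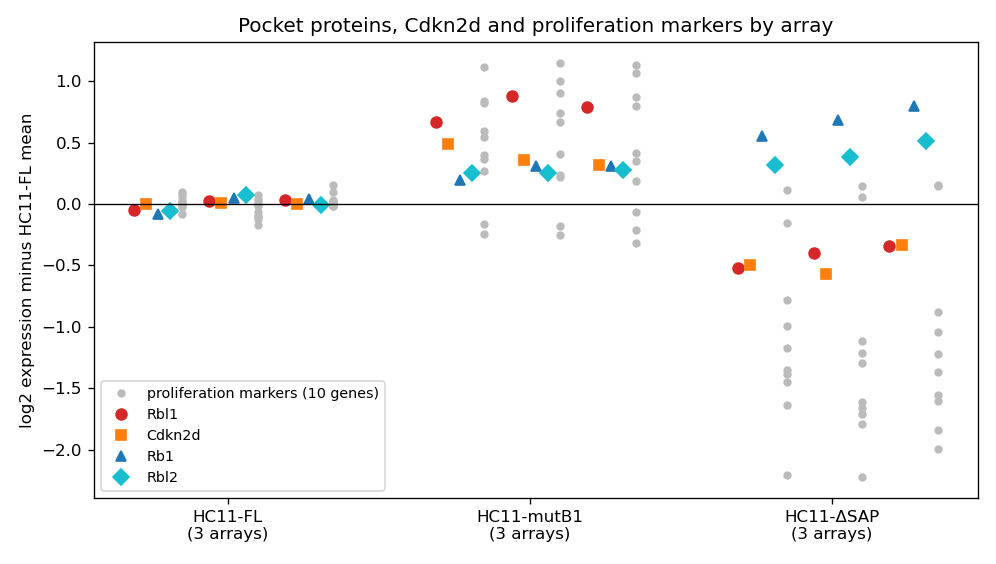
Log2 expression minus the HC11-FL mean (y axis) on the 3 arrays of each strain (x axis) for Rbl1, Cdkn2d, Rb1 and Rbl2, and for 10 proliferation markers in grey, with symbols of an array set side by side. Rbl1 and Cdkn2d lie above 0 on all HC11-mutB1 arrays and below 0 on all HC11-ΔSAP arrays, whereas Rb1 and Rbl2 lie above 0 in both.

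For the genes past all 3 filters, the genes with the most similar profile were taken from 971 genes whose strain means spanned at least 1 log2 unit. Pearson's r over the 9 arrays describes likeness only, since the arrays fall into 3 strains. Closest to Cdkn2c were Angpt1, an angiopoietin (r = 0.994), Pcca, a subunit of propionyl-CoA carboxylase (0.992), and Gca, grancalcin (0.991). Like Cdkn2c these were low in HC11-mutB1, with differences from HC11-FL of -2.49, -1.09 and -1.78, and were not called in HC11-ΔSAP. Closest to Rbl1 were Mybl1, a Myb family transcription factor (r = 0.996), Anxa8, an annexin (0.992), and Cdt1, a replication licensing factor (0.990). Like Rbl1 they rose in HC11-mutB1, by 0.86, 1.03 and 0.72, and fell in HC11-ΔSAP, by 0.43, 0.65 and 0.30. For both Cdkn2c and Rbl1, the shared directions follow from choosing the genes by r on the same arrays.

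The Mkl1 probeset, listed under the current symbol Mrtfa, read 9.95 ± 0.11 (mean ± SD, n = 3 arrays) in the control strain, 9.83 ± 0.07 in HC11-mutB1 and 9.47 ± 0.07 in HC11-ΔSAP. HC11-ΔSAP was below HC11-FL (-0.48, adjusted p = 0.0018), whereas the differences of -0.12 in HC11-mutB1 and -0.35 between the mutant strains missed the threshold (adjusted p = 0.31 and 0.011). Whether its probes read the deleted stretch or the introduced constructs was not analysed here. At the protein level, the paper reports sorting for similar amounts of the Mkl1 fusions and approximately equal overexpression on a Western blot. All 6 epithelial markers (Epcam, Cdh1, Krt8, Krt18, Krt5, Krt14) were above the minimum of 4. Their log2 summed level ran from 12.82 to 12.86 on the control arrays, 13.10 to 13.13 on the HC11-mutB1 arrays and 12.67 to 12.68 on the HC11-ΔSAP arrays. Single epithelial markers differed more than their sum. Against HC11-FL, 2 were called lower and 3 higher in HC11-mutB1, and 4 lower and 2 higher in HC11-ΔSAP. Of all genes, 10.6% were called lower and 15.7% higher in HC11-mutB1, and 12.0% and 16.0% in HC11-ΔSAP. The differences in these strains were 1.15 and -1.90 for Krt5, -0.65 and -1.36 for Krt18, and 0.54 and 0.42 for Epcam. Of the fibroblast markers 5 of 6 were above the minimum, with sums of 8.73 to 8.78, 8.53 to 8.62 and 8.75 to 8.77. Behind these sums Dcn, Pdgfra and Pdgfrb were called in opposite directions, with differences from HC11-FL of -0.48, 0.51 and -0.87 in HC11-mutB1 and 1.81, -0.42 and -0.38 in HC11-ΔSAP. Of the immune markers 3 of 6 were, with sums of 8.15 to 8.22, 7.90 to 7.94 and 8.48 to 8.50, and of the adipocyte markers 2 of 4, with sums of 8.07 to 8.26, 7.17 to 7.43 and 9.26 to 9.43. In each of the last lists a single gene was called: Fabp4 among the adipocyte markers (-0.97 in HC11-mutB1 and 1.34 in HC11-ΔSAP) and Cd68 among the immune markers (-0.34 and 0.45). Like Cdkn2c, both were lowest in HC11-mutB1, and like Rb1, both were highest in HC11-ΔSAP. The markers of these lists below the minimum were Lum, Ptprc, Lyz2, Cd79a, Adipoq and Lep, and all 4 endothelial markers were below it too. The part of these markers in the results above was not tested.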

How the data were processed

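RNA of 9 cultures was hybridised to Affymetrix Mouse Gene 1.0 ST arrays, 3 for each of 3 strains, grouped by the sample labels. The authors deposited log2 expression values per probeset, background-corrected, quantile-normalized and summarised by robust multi-array average (RMA) with affy in R 2.10.0, according to the methods and the submitters' processing notes. The deposited log2 values were used without further normalization. Array medians ran from 4.53 to 4.60. Correlations ran from 0.994 to 0.995 within strains and from 0.985 to 0.989 between strains. The number of arrays limits the precision. Of the 34760 probesets, 15714 (45.2%) held a value that occurs on more than 1 array, 4 probesets of the genes described here among them.

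Probesets were named from the GEO platform annotation, in which 21640 had 1 symbol, 1321 several and 11799 none. For each gene the single-symbol probeset with the highest mean was used. One mean per strain was fitted over all 9 arrays with limma 3.58.1 in R 4.3.3 (lmFit and eBayes, 6 residual degrees of freedom, tested on simulated data), p-values were adjusted over all probesets by Benjamini-Hochberg, and calls were made at an adjusted p of at most 0.01. The genes described and the pathway lists were chosen with earlier results of these data known, and no list was tested as a set. Text names all measured genes of the family and up to 4 called genes with the largest difference in each list. Other genes, such as E2f1 and the direct partners of the Ink4 proteins, were named in addition. For genes past all 3 filters, 3 genes of similar profile and the flanking genes are named too. Promoter sequences are from RefSeq (GRCm38.p6). Alternatives were array weights, the strains compared alone, a trended robust prior, re-centred arrays, the mean of all probesets, adjustment over expressed probesets, a threshold of 0.05, a replicate block and each array left out.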

Additional observations from a re-analysis of the deposited data

How the results depend on the processing

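Counts for the 9 genes changed as follows. For HC11-mutB1 against HC11-FL, the number called lower, 3, became 2 with the strains compared alone or the replicate block, 4 with arrays re-centred on expressed probesets or at an adjusted p of 0.05, and 2 to 4 with an array left out. The number called higher, 2, became 1 with the replicate number as a block, 3 with adjustment over expressed probesets, 4 at an adjusted p of 0.05 and 1 to 2 with each array left out in turn. The number past all 3 filters there, 1, ranged from 0 to 1 with an array left out, the gene lost being Cdkn2c by its fold. For HC11-ΔSAP against HC11-FL, the number called lower, 5, became 3 with the arrays re-centred on their medians, 4 with the mean of all probesets, the strains compared alone or the block, and ranged from 2 to 5 with an array left out, with the lowest count without HC11-FL replicate 2 or 3. The number higher there, 2, became 1 with the strains compared fitted alone. For HC11-ΔSAP against HC11-mutB1, the number called higher, 2, became 1 with the strains compared alone, 1 with re-centred medians, 3 at an adjusted p of 0.05, with the trended prior or with re-centring on expressed probesets, and 1 to 2 with an array left out. Other counts did not change. The causes were not tested. Refitting the differences of the 9 genes in 3 comparisons under 8 other settings, 200 of the refitted values kept direction and call, 11 lost and 4 gained a call, and 1 changed sign. With each of the 9 arrays left out the refitted values were 206, 31, 1 and 5. The changes of sign were in differences that were never called: Cdkn1c in HC11-ΔSAP against HC11-FL (-0.05 to 0.07 with an array left out) and Cdkn2a between the mutant strains (-0.01 with array weights, and -0.03 to 0.07 with an array left out). The replicate numbers did not pair the samples: deviations of same-numbered arrays correlated at -0.11 to 0.26, and 4 of 9 arrays matched their own number best. The block also took the call from Cdkn2a in both mutant strains (adjusted p = 0.013 and 0.016) and from Cdkn2d in HC11-mutB1 (0.018). It took no other call. The precision of every difference is limited by the 3 arrays per strain.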
